A study of Mus musculus with 18 samples.

Results

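Halofuginone was given to mouse CD8+ T cells whose genome had been cut at Rosa26, a neutral site that served as the control target, and the transcriptome was compared with that of the same control cells left without the drug. The comparison rests on 6 of the 18 libraries of the study, 3 treated and 3 untreated, chosen by their labelled genotype and treatment. Fold changes are treated over untreated on the log2 scale, with ± for their standard error and a minus sign for a fall. The standard error was derived as the size of the log2 fold change over the square root of its edgeR F statistic. Rose and fell are written of genes with an edgeR p, adjusted over all genes, under 0.05. The cells were primary cells of spleen and lymph node, CRISPR/Cas9 had been applied to every group, and culture with or without the drug lasted 24 h. The other 12 libraries were of Atf4 knockout and Cebpg knockout cells under the same treatments. They enter where the response of control cells is set against theirs. They also enter every standard error and p-value, because the spread per gene was estimated from all 6 groups. The labels give neither the dose nor the age or strain of the mice, and whether each library is of its own mouse or culture is not stated. The p-values therefore measure the spread between libraries within the groups, which may be technical.

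Poly-A RNA gave 17.5, 17.8 and 18.8 M (1000000) gene counts in untreated replicates 1 to 3 and 20.3, 17.7 and 15.7 M in the treated ones. Levels are in CPM, counts per 1000000 counts after scaling between libraries, so each level is a share of the RNA of its library. In bulk RNA, fewer cells of a type and less RNA per cell cannot be told apart. Treated replicate 2 stood apart among the 6 Rosa26 libraries. Genes annotated only as transcripts awaiting experiments held 0.0542% of its counts against 0.189% and 0.225% in the other treated libraries. In the untreated ones they held 0.1% to 0.133%. Malat1, a long RNA that stays in the nucleus, moved the same way, at 1023, 858 and 1168 CPM untreated and 2074, 672 and 2607 CPM treated in order of replicate. The spread among treated libraries was the wider one, with a biological coefficient of variation of 12.9% against 4.38% among untreated libraries. Its part in the results below was not tested. For most calls of named genes, and for the larger shifts in counts, that depended on 1 library, the value without it is given. Smaller shifts in the counts of the gene lists below are not given, so a count without such a value may still have changed. For example, without treated replicate 2 the risen members of the BCL2 family numbered 6 and not 8. The fallen members of the glucose and MondoA list then numbered 14 and not 11.

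Markers of CD8 T cells were abundant in all 6 libraries. Cd8a, a chain of the CD8 coreceptor, was at 936, 943 and 962 CPM untreated and at 1072, 1169 and 1096 CPM treated. Of 8 measured markers of CD8 T cells 2 rose and 2 fell (25.0% each, against 23.6% and 24.1% of all genes). Without any 1 of 5 libraries 1 fell. Cd3e, an invariant chain of the T cell receptor complex, was at 158, 169 and 167 CPM untreated and 152, 161 and 164 CPM treated. The B cell genes Cd79a and Cd74 stayed at or below 1.37 CPM in all 6 libraries, and 0 of 5 B cell markers passed the threshold; H2-Aa, at 0.807 CPM or less, did so without untreated replicate 3. Of 4 markers of myeloid cells 2 rose, or 1 without any of 5 libraries, and Cst3 fell without treated replicate 2. The one that rose in every case was Mpeg1, a perforin-like gene of macrophages, at 0.54, 0.658 and 1.01 CPM untreated and 5.91, 4.53 and 4.23 CPM treated. Of 3 markers of red cells and platelets 1 rose and 2 fell, and the platelet gene Ppbp, at 0.781, 1.08 and 0.225 CPM untreated, had no read in any treated library. Of 6 markers of NK cells 1 was measured, and it rose: Klrc1, which encodes the receptor NKG2A, was at 6.3, 5.2 and 5.84 CPM untreated and 9.64, 13.7 and 11.1 CPM treated (0.99 ± 0.156). The summed level of the B cell and myeloid lists stayed low, from 13.2 to 13.9 CPM untreated and 10.8 to 15.7 CPM treated for B cells and from 44.7 to 50.7 CPM untreated and 41.7 to 48.1 CPM treated for myeloid cells.

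Halofuginone occupies the proline site of the bifunctional glutamyl-prolyl-tRNA synthetase, so that uncharged proline tRNA builds up as it would without proline. Uncharged tRNA activates the kinase GCN2, which phosphorylates the initiation factor eIF2. General translation then slows, while the mRNA of ATF4, a transcription factor of the bZIP family, is translated more. ATF4 pairs with other bZIP proteins, C/EBP gamma among them, and switches on genes of amino acid uptake and synthesis, tRNA charging and, under lasting stress, cell death. In T cells the same state is known to slow proliferation.

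Of 14695 genes tested, 7008 (47.7%) changed with the drug by edgeR's quasi-likelihood test at a Benjamini-Hochberg adjusted p under 0.05. A total of 3461 (23.6%) rose and 3547 (24.1%) fell, and the levels of the 2 groups did not overlap for 8092 genes (55.1%). A rise of at least 2-fold was found for 1020 genes (6.94%) and a fall of that size for 571 (3.89%). The median log2 fold change of all genes was 0.02. With about 1 gene in 2 past the threshold, counts of any gene group have to be read against these shares. The gene lists below were chosen with earlier results of these data known, so their shares and medians describe their members only.

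**Figure D1:**
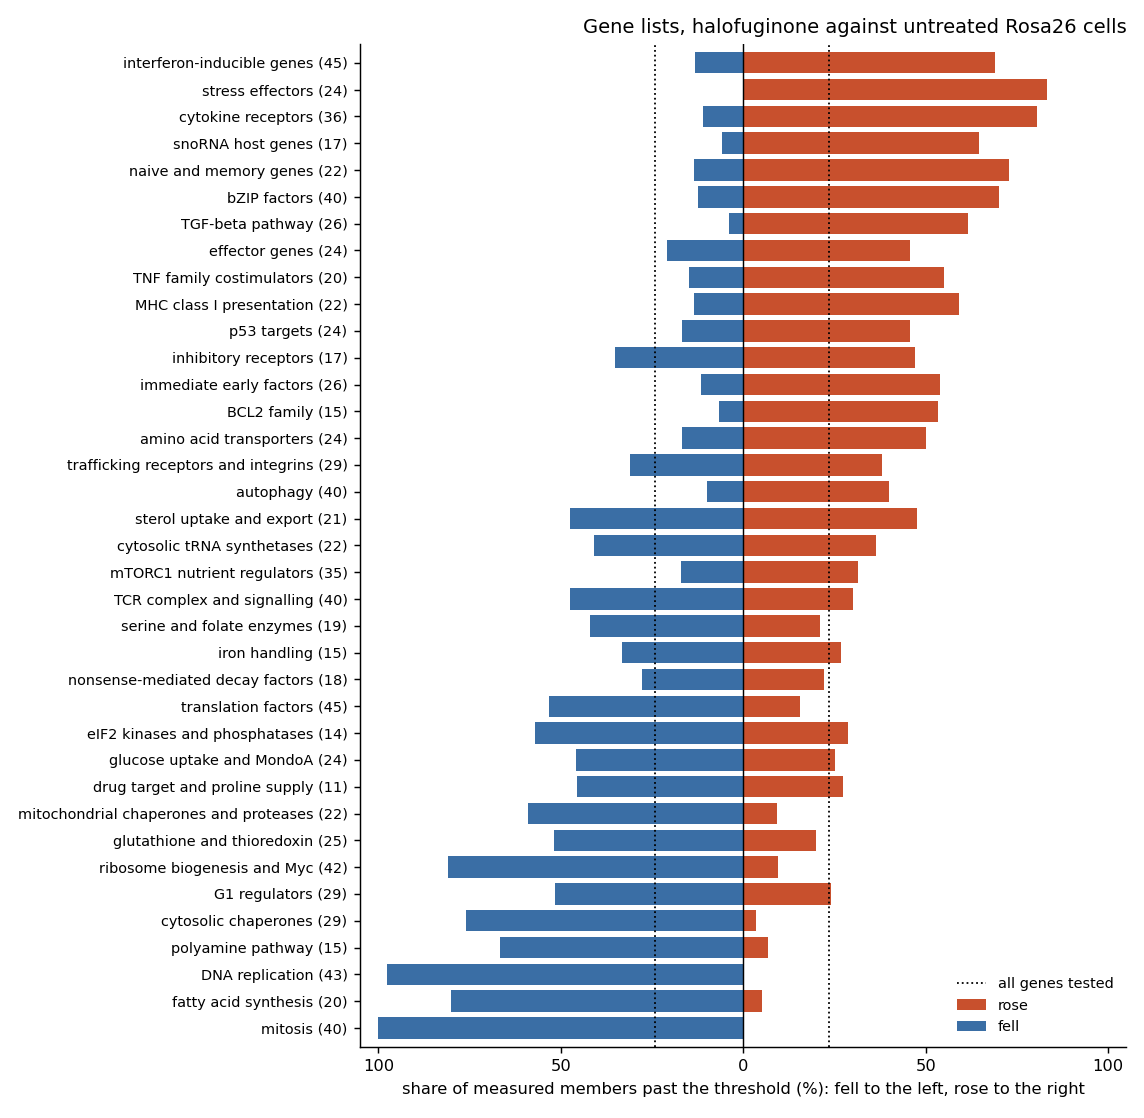
Share of the measured members of 37 gene lists that rose (right, red) or fell (left, blue) with halofuginone in Rosa26 cells, in percent; the number measured stands in parentheses, lists are ordered by median log2 fold change, and dotted lines mark the shares of all genes tested (23.6% and 24.1%). Mitosis and DNA replication lie at the lower end with 0 members risen, and stress effectors have 0 members fallen.

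The target of the drug rose. Eprs1, which encodes the glutamyl-prolyl-tRNA synthetase, was at 343, 357 and 346 CPM in the untreated libraries and at 565, 611 and 538 CPM in the treated ones. Every treated library lay above every untreated one, and the log2 fold change was 0.71 ± 0.0612 (adjusted p = 9.22e-09). Pars2, the mitochondrial prolyl-tRNA synthetase, was -0.26 (adjusted p = 0.108), and fell by 0.37 without treated replicate 2.

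Genes of proline supply split. Aldh18a1, which makes the first committed intermediate from glutamate, rose by 0.49 ± 0.0676, and Pycr1, a mitochondrial enzyme of the last step, rose from 5.88, 4.37 and 4.55 CPM to 10.8, 15 and 10.7 CPM (1.30 ± 0.203). Pycr3, a cytosolic reductase of that step, fell by 0.75. Oat, ornithine aminotransferase, which links ornithine to the proline pathway, went from 97.9, 101 and 91.5 CPM to 49.97, 57.8 and 47.8 CPM (-0.90 ± 0.0921) with no overlap between the groups. The collagen prolyl hydroxylases P4ha1 and P4ha2 fell (log2 fold changes of -0.49 and -1.50), the latter at under 2 CPM. Prodh, which breaks proline down, was 0.65 (adjusted p = 0.074; it rose by 0.90 without untreated replicate 3) and the peptidase Pepd -0.04 (adjusted p = 0.773). Of the 11 genes of this list 3 rose (27.3%) and 5 fell (45.5%), with a median of -0.27. The shares of all genes were 23.6% and 24.1%.

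Upstream of ATF4, the kinases of eIF2 did not move alike. Eif2ak4, which encodes GCN2, was at 30.9, 32.9 and 31.2 CPM untreated and 28, 25.6 and 26.3 CPM treated (-0.25, adjusted p = 0.0388), a fall whose call was lost with an adjusted p of 0.0584 to 0.134 without any 1 of untreated replicates 1, 2 and 3 and treated replicates 2 and 3. Eif2ak3, which encodes the ER kinase PERK, rose from 43.6, 41.5 and 40.4 CPM to 85, 97.6 and 96.6 CPM (1.15 ± 0.0607, adjusted p = 6.67e-12). Here the treated libraries were all at about the same level, well above the untreated ones. The heme-regulated kinase Eif2ak1 was 0.01 (adjusted p = 0.94) and the RNA-activated kinase Eif2ak2 -0.23 (adjusted p = 0.082), which fell by 0.33 without treated replicate 1.

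On the other side of the switch, Ppp1r15a, which encodes the inducible phosphatase subunit GADD34 that removes the phosphate, rose from 8.17, 12.8 and 10.4 CPM to 22.1, 26.1 and 19.4 CPM (1.10 ± 0.158). Its constitutive relative Ppp1r15b rose by 0.18, with an adjusted p of 0.0607 to 0.113 without any 1 of untreated replicates 1, 2 and 3 and treated replicate 2 (at the smallest, a log2 fold change of 0.12). Subunits of eIF2B, the exchange factor that phosphorylated eIF2 blocks, fell: Eif2b1 (-0.60), Eif2b2 (-0.50), Eif2b4 (-0.49) and Eif2b5 (-0.52). Eif2s1, the subunit that is phosphorylated, fell by 0.42, and Gcn1, an activator of GCN2, fell by 0.21. Of the 14 genes of the list 4 rose (28.6%) and 8 fell (57.1%), with a median of -0.24. The shares of all genes were 23.6% and 24.1%. Without untreated replicate 1 the risen ones numbered 2.

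The bZIP factors rose more often than genes at large: 28 of 40 rose and 5 fell, with a median of 0.44, against 23.6% and 24.1% of all genes. Atf4 itself was at 282, 267 and 256 CPM untreated and 357, 428 and 351 CPM treated (0.50 ± 0.101), a smaller change in mRNA than that of most factors named here. Cebpg went from 52.8, 55.1 and 53 CPM to 169.5, 183 and 167 CPM (1.69 ± 0.0621, adjusted p = 6.63e-14). Atf5, a factor of the same family that is also translated more when eIF2 is phosphorylated, went from 12.1, 11.1 and 7.86 CPM to 99.2, 115 and 86.3 CPM (3.28 ± 0.145). It was the largest fold change on the list.

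Ddit3, which encodes the death-linked factor CHOP, was at 5.46, 9.21 and 5.16 CPM untreated and at 41.4, 53.8 and 39 CPM treated (2.76 ± 0.216). All treated libraries were far above all untreated ones. Other bZIP genes that rose have roles outside the stress response. Bach2, a repressor of effector differentiation, rose from 42, 36.2 and 40.4 CPM to 144, 142 and 148 CPM (1.87 ± 0.0833), Fosl2, an AP-1 subunit, by 2.00 ± 0.0924, and Crem, a cAMP-responsive factor, by 1.62 ± 0.0935. Those that fell were Batf (-0.84), which drives effector programmes with AP-1, Jund (-0.57), Atf6b (-0.60), Xbp1 (-0.32), a factor of the unfolded protein response, and Fosb (-2.01) at under 4 CPM.

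**Figure D2:**
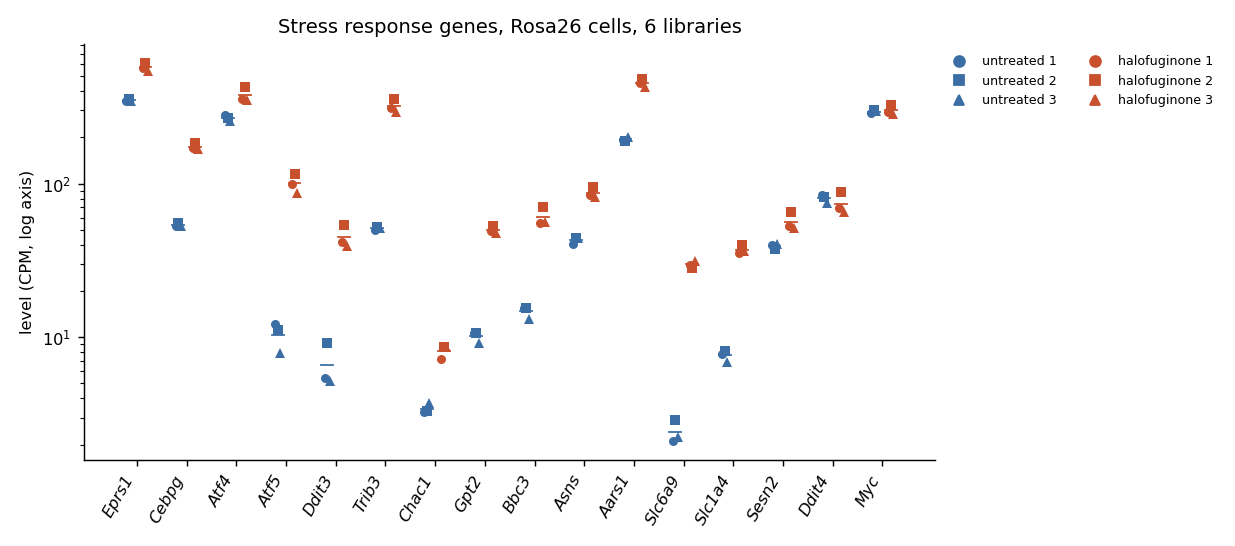
Level in CPM (log axis) of 16 genes in each of the 6 Rosa26 libraries, untreated in blue and halofuginone in red; marker shapes give the replicate number and lines the group means. Treated libraries lie above untreated ones from Eprs1 to Sesn2, whereas Ddit4 and Myc overlap between the groups.

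Of 24 effector genes downstream of the stress response 20 rose and 0 fell, with a median of 0.93. Trib3, a pseudokinase that restrains AKT and ATF4, was at 50.02, 52.3 and 51.6 CPM untreated and 309, 356 and 294 CPM treated (2.64 ± 0.113, adjusted p = 1.37e-12). Gpt2, which makes alanine in mitochondria, rose from 10.7, 10.7 and 9.2 CPM to 49, 52.8 and 47.9 CPM (2.29 ± 0.121). Asns, asparagine synthetase, rose from 40.5, 44 and 44.3 CPM to 84.5, 94.8 and 81.2 CPM (1.01 ± 0.0824). For these 3 genes the lowest treated library was above the highest untreated one by a wide margin.

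Chac1, which cleaves glutathione, was low in all libraries, at 3.24, 3.29 and 3.76 CPM untreated and 7.26, 8.63 and 8.65 CPM treated (1.25 ± 0.262). Bbc3, which encodes the death-promoting BH3 protein PUMA, rose from 15.5, 15.5 and 13.2 CPM to 55.1, 70.6 and 56.6 CPM (2.04 ± 0.134). Rhbdd1, a rhomboid protease, rose by 1.73 ± 0.0875, and Soat2, which esterifies cholesterol, by 1.56 ± 0.096. Sesn2, a leucine sensor that restrains mTORC1, rose by 0.52 ± 0.0888. The exceptions were 4 genes not past the threshold. One of them, Ddit4, an inhibitor of mTORC1, was at 84.5, 82 and 75.2 CPM untreated and 68.9, 87.7 and 64.9 CPM treated (-0.13 ± 0.147, adjusted p = 0.516), with the groups overlapping.

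The C/EBP-ATF response element, the composite site that ATF4 binds with a C/EBP partner, can be looked for in promoter sequence. Its letters TGATGNAA were searched on both strands in RefSeq windows from 250 bases before to 50 after the start of each gene (build GRCm38.p6; 9801 of the tested genes had a window). Overlaps with other motifs were not removed. The letters occurred in 2.7% of all genes with a window and in 7 of the 17 stress effectors with one (41.2%). They were found for Trib3, Chac1, Nupr1, Vldlr, Herpud1, Asns and Rab39b. Among genes with a rise of at least 2-fold the share was 4.42%, and of 19 amino acid transporters with a window 1 held the letters (5.26%), Slc1a4. Stretches around the match are shown for 4 of these effectors and for Atf3, each on the strand of its gene with the match in capitals, so that the shared core can be compared. Capitals that read TTGCATCA are the element on the opposite strand.
Vldlr (chr19:27216780-27216867, plus strand): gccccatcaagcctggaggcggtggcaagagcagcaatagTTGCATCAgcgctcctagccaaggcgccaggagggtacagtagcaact
Chac1 (chr2:119351009-119351096, plus strand): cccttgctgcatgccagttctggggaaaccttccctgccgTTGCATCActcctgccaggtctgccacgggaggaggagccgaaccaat
Nupr1 (chr7:126625533-126625620, minus strand): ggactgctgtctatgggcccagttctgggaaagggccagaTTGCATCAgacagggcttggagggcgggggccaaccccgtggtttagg
Atf3 (chr1:191183396-191183483, minus strand): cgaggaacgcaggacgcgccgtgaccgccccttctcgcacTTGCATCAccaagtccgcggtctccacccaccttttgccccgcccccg
Asns (chr6:7693210-7693272, minus strand): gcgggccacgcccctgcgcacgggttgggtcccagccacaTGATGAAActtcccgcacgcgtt

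In 4 of the 5 stretches the same 8 letters stand in capitals, and in Asns the match lies on the strand of the gene with another letter at the free position. A match is a description of the letters and not a site shown to be bound. Among the genes shown, Vldlr, a lipoprotein receptor, was at 0.12, 0.658 and 0.168 CPM untreated and 1.65, 1.8 and 1.37 CPM treated (2.33 ± 0.534). Nupr1, a stress-induced chromatin protein, rose by 1.14 ± 0.353, with an adjusted p of 0.0788 without treated replicate 2. Atf3, a bZIP factor induced by many stresses, rose by 0.98 ± 0.327, with an adjusted p of 0.0505 to 0.0693 without any 1 of untreated replicates 1 and 3 and treated replicate 1. Vldlr, Nupr1, Atf3, Herpud1 and Rab39b are named for these letters, after their values were seen.

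Of 24 amino acid transporters 12 rose and 4 fell, with a median of 0.18. Slc6a9, the glycine transporter GLYT1, was at 2.1, 2.87 and 2.25 CPM untreated and 29.4, 28.4 and 31.6 CPM treated (3.63 ± 0.171, adjusted p = 1.41e-12). Slc1a4, an exchanger of alanine, serine and cysteine, went from 7.81, 8.13 and 6.9 CPM to 35.2, 39.9 and 36.6 CPM (2.29 ± 0.123). In both genes the 3 treated libraries lay close together and above all untreated ones.

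Slc38a2, the neutral amino acid transporter SNAT2, which also carries proline, was already abundant, at 188, 187 and 194 CPM, and rose to 357, 372 and 359.9 CPM (0.94 ± 0.0566). Slc38a9, the lysosomal arginine sensor of mTORC1, rose by 1.40 ± 0.128, and Slc7a3, a transporter of cationic amino acids, by 1.84 ± 0.227 from about 3 CPM. Those that fell included Slc6a6, the taurine transporter (-0.42), and Slc38a10 (-0.28).

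The cytosolic tRNA synthetases split into 8 that rose and 9 that fell, of 22 genes, with a median of 0.06. Aars1, for alanine, went from 191, 191 and 202 CPM to 454, 479.7 and 426 CPM (1.22 ± 0.0636). It rose furthest, followed by Wars1 for tryptophan (0.91 ± 0.0791), Sars1 for serine (0.81 ± 0.0827), the drug target Eprs1, and Yars1 for tyrosine (0.68 ± 0.0523). The fallen ones included Hars1 for histidine (-0.53), Farsa for phenylalanine (-0.55), Kars1 for lysine (-0.51) and Rars1 for arginine (-0.37), with the scaffold gene Aimp2 of the synthetase complex (-0.50). Eprs1, Kars1, Rars1 and Aimp2 encode parts of the same complex, and their mRNAs moved in opposite directions.

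Serine and folate enzymes fell more often than they rose (8 and 4 of 19). These shares were 42.1% and 21.1%, against 24.1% and 23.6% of all genes. Ahcy, which recycles the product of methylation reactions, went from 406, 381 and 382 CPM to 162, 187 and 145 CPM (-1.24 ± 0.125), and Mat2a, which makes the methyl donor, fell by 0.67. Tyms (-1.23) and the cytosolic hydroxymethyltransferase Shmt1 (-0.87) fell. Among those that rose, Aldh1l2, a mitochondrial enzyme of folate oxidation, and Amt, of the glycine cleavage system, did so at under 3 CPM, by 2.08 ± 0.561 and 1.41 ± 0.333. Mat2b, the regulatory partner of Mat2a, rose by 0.32 ± 0.109, with an adjusted p of 0.0585 to 0.0647 without any 1 of untreated replicate 3 and treated replicate 2.

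Among 35 nutrient regulators of mTORC1, the kinase complex that couples amino acids to growth, 11 rose and 6 fell, with a median of 0.05. The share called, 48.6%, was near the 47.7% of all genes. Without untreated replicate 2 or 3 only 3 fell, and 3 did with upper-quartile scaling. Sesn3, a relative of Sesn2, rose by 0.92 ± 0.0578, Eif4ebp1, the translational repressor 4E-BP1, by 0.66 ± 0.0924, and Fnip1, a partner of folliculin, by 0.35 ± 0.0668. Of the falls, Kptn, a part of the KICSTOR complex, was the clearest (-0.92), with Sesn1 (-0.40) and Tsc2 (-0.30).

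Of 45 translation factors 24 fell and 7 rose, with a median of -0.23; 4 rose without untreated replicate 3 and 4 without treated replicate 2, and 18 fell without treated replicate 3. Their summed levels overlapped, at 34350 to 36090 CPM untreated and 31930 to 39300 CPM treated. Eif4g1, the scaffold of the cap complex, was at 983, 1011 and 1016 CPM untreated and 661, 717 and 659 CPM treated (-0.56 ± 0.0594). The helicase cofactor Eif4h (-0.76), the eIF3 subunits Eif3b (-0.68) and Eif3l (-0.72) and the release factor Gspt1 (-0.61) fell. Another eIF3 subunit, Eif3c, rose by 0.41 ± 0.0776, and the helicase Eif4a2 by 0.31 ± 0.0518.

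Ribosome biogenesis fell as a group, with 34 of 42 genes down and 4 up and a median of -0.38. Nolc1, a nucleolar chaperone, was at 386, 410.1 and 403 CPM untreated and 242, 254 and 203 CPM treated (-0.78 ± 0.0725). Wdr12, Gnl3 and the polymerase I subunit Polr1b fell (log2 fold changes of -0.85, -0.55 and -0.67). These 4 genes were named by smallest p. Their changes were moderate, and in none of them did the groups overlap.

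Myc, the growth factor-induced driver of these genes, was at 287, 299.7 and 297 CPM untreated and 294, 326 and 284 CPM treated (0.03 ± 0.068, adjusted p = 0.717). The 4 members of the list that rose were Mxd1, Mxd4, Mxi1 and Mnt, which encode proteins that compete with MYC for its partner MAX and repress the same genes. Mxd1 went from 11, 12.6 and 13.1 CPM to 67.8, 73.9 and 61.8 CPM (2.47 ± 0.0991, adjusted p = 1.65e-13), Mxd4 rose by 1.53 ± 0.0658, Mxi1 by 0.73 ± 0.078 and Mnt by 0.72 ± 0.0869. Mxd3, the member of the MXD family linked to proliferating cells, fell by 1.44.

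The largest rises in absolute level were of another kind. Of the 8 genes with the largest gain in CPM, 7 encode ribosomal proteins or factors of translation and growth control, whose mRNAs are known to begin with a tract of pyrimidines: Eef1a1, Tpt1, Rpl4, Rack1, Rpl12, Rps14 and Rpl17. Eef1a1, elongation factor 1A, was at 9468, 10010 and 9265 CPM untreated and 10840, 13350 and 10760 CPM treated, with the highest value in replicate 2. Its rise of 0.28 ± 0.102 was lost with an adjusted p of 0.0705 to 0.0935 without any 1 of untreated replicates 1 and 3 and treated replicate 2 (at the smallest, a log2 fold change of 0.17). In each of the 7 genes treated replicate 2, the library low in Malat1, was the highest library.

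Tpt1 went from 2602, 2461 and 2374 CPM to 3672, 4498 and 3302 CPM (0.63 ± 0.178), Rack1 from 2004, 2106 and 1957 CPM to 2684, 3535 and 2627 CPM (0.54 ± 0.133) and Rpl4 rose by 0.45 ± 0.117. The rise of Rpl12, 0.61, had an adjusted p of 0.0561 without treated replicate 2, and that of Rps14, 0.56, one of 0.0802 to 0.21 without any 1 of untreated replicates 1 and 3 and treated replicate 2 (at the smallest, a log2 fold change of 0.31). Counts of ribosomal protein genes may be shared with their many processed copies and are uncertain for that reason.

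Host genes of small nucleolar RNAs, whose spliced transcripts are degraded when they are translated, rose in 11 of 17 cases and fell in 1, with a median of 0.52. Snhg12 was at 28.8, 32.7 and 29.5 CPM untreated and 119.7, 171 and 127 CPM treated (2.20 ± 0.142). Zfas1 went from 94.7, 106 and 99.8 CPM to 283, 409.6 and 268 CPM (1.68 ± 0.23) and Gas5 from 228, 210.1 and 208 CPM to 556, 687 and 544 CPM (1.47 ± 0.247). In all 3 genes treated replicate 2 was again the highest library, and the other treated libraries still lay above all untreated ones. Replicate 2 was also the highest library for the stress genes Eprs1, Atf4, Cebpg, Atf5, Ddit3, Trib3 and Asns. It was not so for Slc6a9 and Chac1. Epb41l4aos rose by 1.44 ± 0.158 and Snhg3 fell by 0.75; hosts that overlap genes on the other strand are uncertain, because the strand setting of the counting is not given in the sources used here. Among factors of nonsense-mediated decay, the pathway that removes such transcripts, 4 of 18 rose (22.2%) and 5 fell (27.8%). These shares were near the 23.6% and 24.1% of all genes. Upf1, the helicase of that pathway, fell by 0.34, and Smg1, its kinase, rose by 0.35 ± 0.0934.

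Most genes of lipid synthesis fell. Of 20 genes of fatty acid synthesis 16 fell and 1 rose, with a median of -0.72; 2 rose without treated replicate 3 and 2 with upper-quartile scaling. Fasn, fatty acid synthase, was at 855, 858 and 865 CPM untreated and 378, 425 and 382 CPM treated (-1.12 ± 0.0614). Scd1, which makes monounsaturated fatty acids, had the lowest fold change of all genes that met the naming rule, at 8.29, 8.43 and 8.87 CPM untreated and 0.726, 1.24 and 1.18 CPM treated (-3.03 ± 0.301, adjusted p = 7.18e-08). Fads2, which makes polyunsaturated ones, went from 34, 30.1 and 31.8 CPM to 5.18, 4.91 and 5.85 CPM (-2.59 ± 0.125). Treated levels of both desaturases were under 6 CPM in all libraries.

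Acsl5, which activates fatty acids (-1.06), Srebf1, the transcription factor of the pathway (-0.83), and Elovl6, an elongase (-0.78), fell. Another elongase, Elovl5, rose by 0.28 ± 0.0806, and by 0.18 without treated replicate 2.

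Genes of sterol handling moved both ways, 10 up and 10 down of 21. Hmgcs1, an early enzyme of cholesterol synthesis, was at 225, 228 and 226 CPM untreated and 71.7, 84.1 and 72.2 CPM treated (-1.57 ± 0.0717). The letters of the sterol regulatory element, TCAC, any base and CCAC on either strand, were in the window of Hmgcs1, the only one of 14 sterol genes with a window to hold them (7.14%), in 0 of 16 genes of fatty acid synthesis and in 1.36% of all genes. Insig1, a brake on sterol synthesis that responds to the sterol-controlled factor SREBP2 as Hmgcs1 does, fell by 1.67, and Stard4, a sterol carrier, fell by 1.31.

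In the other direction, Abca1 and Abcg1, which export cholesterol and are targets of the liver X receptors, rose. Abcg1 went from 20.3, 23.8 and 23.4 CPM to 52, 51.4 and 48.2 CPM (1.17 ± 0.0912) and Abca1 from 0.601, 1.55 and 1.24 CPM to 3.58, 4.72 and 5.73 CPM (2.03 ± 0.292). Mylip, a ubiquitin ligase and another target of those receptors, rose by 0.90 ± 0.126, and Insig2 by 0.65 ± 0.103. Soat2, named above among the stress effectors, stores cholesterol as esters.

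Txnip, which blocks glucose uptake and is induced by the sugar-sensing factor MondoA, had one of the larger rises in level, from 176, 202 and 181 CPM to 816, 1023 and 848 CPM (2.27 ± 0.0894, adjusted p = 1.28e-13). Its relative Arrdc4, another MondoA target, went from 1.44, 1.38 and 1.96 CPM to 14.5, 18.1 and 13.6 CPM (3.26 ± 0.182). The glucose transporter Slc2a1, the hexokinase Hk2 and the lactate transporters Slc16a1 and Slc16a3 fell (log2 fold changes of -0.70, -0.74, -0.93 and -1.89). Hif1a, which encodes a factor that raises glycolytic genes, rose by 0.86 ± 0.0593 as those genes fell. In the list as a whole 6 of 24 rose (25.0%) and 11 fell (45.8%), against 23.6% and 24.1% of all genes.

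The polyamine pathway, which feeds translation and growth, fell in 10 of 15 genes and rose in 1, with a median of -0.49; 2 rose without treated replicate 1 and 2 with upper-quartile scaling. Odc1, ornithine decarboxylase, its rate-limiting enzyme, was at 719, 732 and 683 CPM untreated and 306, 377 and 309 CPM treated (-1.10 ± 0.0864). Amd1, which supplies the aminopropyl donor (-0.84), and Azin1, an inhibitor of the protein that degrades ODC1 (-0.54), fell. Mtap, which salvages the by-product of polyamine synthesis, fell by 0.78. The single gene that rose, Sat1, acetylates spermidine and spermine for export or breakdown (0.86 ± 0.161). Paox, an oxidase of the same breakdown route, fell by 1.16.

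Most chaperone genes fell. In the cytosol 22 of 29 fell and 1 rose, with a median of -0.48. Cct8, a subunit of the TRiC ring, was at 539.7, 579 and 529.5 CPM untreated and 316, 359 and 311 CPM treated (-0.74 ± 0.0667), and Hsph1, Dnaja1 and Hspa4 fell (log2 fold changes of -0.73, -0.62 and -0.57). The gene that rose was Hspa4l (0.47 ± 0.085).

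In mitochondria 13 of 22 chaperones and proteases fell and 2 rose. Hspd1, the chaperonin HSP60, went from 699.9, 738 and 718 CPM to 386, 456 and 375 CPM (-0.83 ± 0.0758). The 2 that rose were Hspa9, the import motor mtHSP70, from 610.4, 637 and 592 CPM to 918, 1035 and 902 CPM (0.63 ± 0.0701), and Lonp1, the matrix protease (0.37 ± 0.0557). Thus 2 chaperones of the same compartment, Hspd1 and Hspa9, moved in opposite directions in all 3 libraries.

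Redox genes fell more often than they rose, with 13 of 25 down (52.0%) and 5 up (20.0%), against 24.1% and 23.6% of all genes. Without treated replicate 2 the risen ones numbered 3. Gstp1 (-0.82), Gsr (-0.53) and Txnrd1 (-0.38) fell. Srxn1, which repairs peroxiredoxins, rose by 1.70 ± 0.223 from under 2 CPM, and Gclc, the catalytic subunit of glutathione synthesis, by 0.23 ± 0.0574. Of 15 genes of iron handling 4 rose (26.7%) and 5 fell (33.3%), against 23.6% and 24.1% of all genes. Without treated replicate 2 the fallen ones numbered 8. Tfrc, the transferrin receptor, went from 735, 655 and 707 CPM to 379, 405 and 405 CPM (-0.82 ± 0.0788), and the heme oxygenase Hmox1 rose by 1.16 ± 0.228 at under 6 CPM.

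Genes of mitosis had a lower median than those of DNA synthesis. Of 40 mitosis genes 40 fell, 38 of them by at least 2-fold, with a median of -1.59 and a range from -2.20 to -0.83. Of 43 DNA replication genes 42 fell, 3 of them by at least 2-fold, with a median of -0.64. The counts of fallen genes stayed within 1.5-fold of these under the 14 alternatives run; the 2-fold counts were not recomputed.

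Plk1, a mitotic kinase, was at 175, 195 and 184 CPM untreated and 54.1, 61.2 and 58.8 CPM treated (-1.67 ± 0.0586, adjusted p = 4.25e-14). Ccnb2 and Ccnb1, the B-type cyclins, went from 249, 259 and 243 CPM to 52.2, 59.8 and 50.9 CPM (-2.20 ± 0.0857) and from 263, 258 and 249 CPM to 56.5, 68.8 and 59.6 CPM (-2.06 ± 0.0809). Cenpf, Kif20a, Prc1 and Kif23, of the kinetochore and the spindle midzone, fell (log2 fold changes of -1.84, -1.85, -1.63 and -1.71). These 7 genes were named by smallest p or lowest fold change. In none of them did the groups overlap, and the 3 libraries of a group lay close together.

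Uhrf1, which recruits the maintenance methyltransferase to new DNA, was at 548, 584 and 563 CPM untreated and 229.5, 246 and 232 CPM treated (-1.26 ± 0.0672). The helicase-loading genes Mcm10 and Cdc6, the ligase Lig1 and the methyltransferase Dnmt1 fell (log2 fold changes of -1.02, -0.93, -0.84 and -0.74). Mki67, the antigen of cycling cells, went from 1379, 1346 and 1373 CPM to 428, 443 and 479.9 CPM (-1.60 ± 0.0718).

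The cell cycle genes homology region, through which the DREAM complex and B-MYB act on genes of late cell cycle, has the core letters TTTGAA. They were found on either strand of the promoter windows in 14.6% of all genes with a window. They were found in 22 of 32 mitosis genes (68.8%), in 6 of 35 DNA replication genes (17.1%) and in 31.3% of the genes that fell by at least 2-fold. The share was 15.1% of the genes that rose by at least 2-fold. It was 30.3% of 33 interferon-inducible genes, 26.3% of 19 amino acid transporters and 5.26% to 18.8% in the other lists searched. Stretches around the match are shown for 4 mitosis genes, on the strand of the gene, because the mitosis and DNA replication lists differ in how often they hold these letters. In Ube2c the capitals are the opposite strand.
Ccnb2 (chr9:70421676-70421761, minus strand): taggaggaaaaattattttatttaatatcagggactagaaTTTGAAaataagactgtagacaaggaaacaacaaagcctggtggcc
Cdc20 (chr4:118437344-118437401, minus strand): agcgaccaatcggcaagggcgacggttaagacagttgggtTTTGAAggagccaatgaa
Ube2c (chr2:164769860-164769928, plus strand): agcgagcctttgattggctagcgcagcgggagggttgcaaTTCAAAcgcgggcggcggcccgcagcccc
Cdk1 (chr10:69352913-69352967, minus strand): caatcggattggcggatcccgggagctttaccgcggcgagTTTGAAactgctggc

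The match begins 18, 29 and 15 bases before the start of Cdc20, Ube2c and Cdk1, and the one shown for Ccnb2 begins 167 bases before it. A run of 6 letters occurs often by composition alone, which is why the share of all genes with a window is given. Cdc20, the activator of the anaphase ligase (-1.91), its ubiquitin-conjugating partner Ube2c (-1.84) and Cdk1, the mitotic kinase that binds cyclin B (-1.67), fell. Cdc20, Ube2c and Cdk1 are named for these letters, after their values were seen.

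Regulators of G1 did not fall as 1 group: 7 of 29 rose (24.1%) and 15 fell (51.7%), with a median of -0.43. The share that rose was near the 23.6% of all genes, and 24.1% of all genes fell. Btg1, an anti-proliferative gene of resting lymphocytes, was at 79.9, 87.7 and 89.8 CPM untreated and 269, 317 and 254 CPM treated (1.71 ± 0.0801). The inhibitors of cyclin-dependent kinases Cdkn1a and Cdkn1b, p21 and p27, rose by 0.84 ± 0.0866 and 0.69 ± 0.0908.

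At the same time Ccnd2, a D-type cyclin, rose from 492, 492 and 502 CPM to 892, 991 and 849.8 CPM (0.88 ± 0.0641), and Cdk6, its kinase, from 501, 528 and 545 CPM to 998, 972 and 1026 CPM (0.93 ± 0.0782). Genes that act at entry into S phase fell, E2f2 (-1.11), E2f8 (-1.41), Ccne1 (-0.92) and Cdc25a (-0.75). The inhibitor Cdkn2c, p18, also fell (-1.46).

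**Figure D3:**
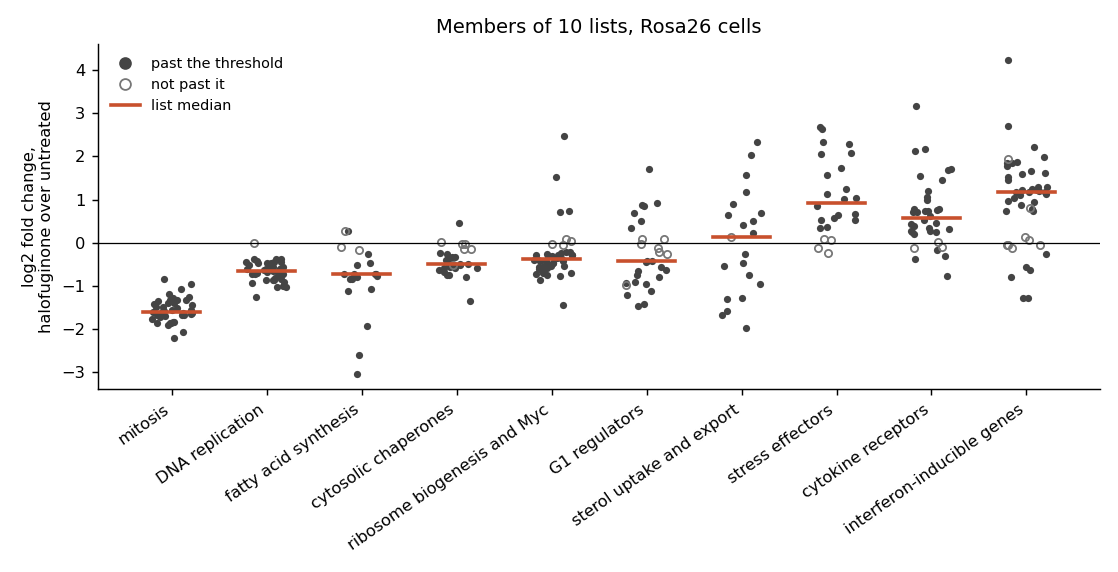
Log2 fold change, halofuginone over untreated Rosa26 cells, of the measured members of 10 lists; filled points passed the threshold, open points did not, and red lines are list medians. Mitosis genes centre on -1.59 and DNA replication genes on -0.64, while G1 regulators and sterol genes lie on both sides of 0.

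Genes of survival and death rose side by side. Of 15 members of the BCL2 family 8 rose and 1 fell, with a median of 0.21. Bcl2l11, which encodes the death-promoting protein BIM, was at 47.7, 46.8 and 45.6 CPM untreated and 158, 161 and 154 CPM treated (1.75 ± 0.0598, adjusted p = 4.25e-14). Bbc3, given above, belongs to the same group of BH3 proteins.

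On the protective side Bcl2 went from 578, 559.5 and 539.9 CPM to 1031, 1089 and 1012 CPM (0.90 ± 0.058) and Mcl1 from 248, 232 and 218 CPM to 353, 382 and 328 CPM (0.61 ± 0.0757). Bcl2l2 rose by 0.52 ± 0.112, while Bak1, a pore-forming member, fell by 0.71. Of 24 p53 targets 11 rose and 4 fell. Plk2 was at 2.46, 2.27 and 2.3 CPM untreated and 15.6, 16.1 and 16.6 CPM treated (2.78 ± 0.13), Trp53inp1 rose by 1.03 ± 0.0512 and Zmat3 by 0.69 ± 0.0647, while Trp53 itself fell by 0.45.

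Of 40 autophagy genes 16 rose and 4 fell, or 2 without treated replicate 1. Among them Atg12, part of the conjugate that extends the membrane, rose by 0.90 ± 0.088, Atg13 by 0.61 ± 0.0694, the cargo receptor Nbr1 by 0.66 ± 0.0729 and the lysosomal cathepsins Ctss and Ctsl by 1.08 ± 0.101 and 1.88 ± 0.196.

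Receptors for cytokines and their signalling parts were among the lists with the largest share of rises, with 29 of 36 up and 4 down and a median of 0.57. Ifngr1, the ligand-binding chain of the interferon gamma receptor, was at 221, 210.3 and 218 CPM untreated and 645, 767 and 702 CPM treated (1.70 ± 0.074, adjusted p = 4.46e-13). Its partner Ifngr2 went from 33.6, 32.1 and 30.2 CPM to 85.2, 95.5 and 83.1 CPM (1.46 ± 0.0751). The 2 chains of the receptor thus rose together and without overlap.

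Il12rb2, the signalling chain of the interleukin 12 receptor, rose from 67.4, 74 and 69.1 CPM to 216, 195 and 208 CPM (1.56 ± 0.0957), Il10ra by 0.98 ± 0.0639 and Kit, the stem cell factor receptor, from 2.52, 2.39 and 3.37 CPM to 11.2, 13.5 and 12.7 CPM (2.16 ± 0.144). Il7r, the receptor for the survival cytokine interleukin 7, went from 20.4, 21.4 and 24 CPM to 35.6, 37.2 and 35.5 CPM (0.72 ± 0.0783). Il2ra, the high-affinity chain of the interleukin 2 receptor that marks activated T cells, was at 775, 812 and 819.7 CPM untreated and 713, 762 and 761 CPM treated (-0.11 ± 0.0617, adjusted p = 0.17). The fallen members were Socs2 (-0.77), a feedback inhibitor, Jak3 (-0.36), the kinase of the shared gamma chain, Il27ra (-0.29) and Stat5a (-0.17), the last with an adjusted p of 0.0519 to 0.16 without any 1 of untreated replicates 1, 2 and 3 and treated replicates 1 and 3.

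Interferon-inducible genes had the highest median of all 37 lists, 1.16, with 31 of 45 up, 25 of them by at least 2-fold, and 6 down. Zbp1, a sensor of Z-form nucleic acid, went from 35.9, 40.5 and 42 CPM to 139, 123 and 110.3 CPM (1.65 ± 0.0954), Igtp, an immunity-related GTPase, from 313, 320.5 and 323 CPM to 952, 854 and 816 CPM (1.46 ± 0.099) and Gbp5, a guanylate-binding protein, from 34.3, 34.3 and 38.3 CPM to 163, 133 and 124 CPM (1.98 ± 0.141). In all 3 genes replicate 1, and not replicate 2, was the highest treated library.

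Gbp11 and Gbp10 were among the highest fold changes of all genes, Gbp11 at 5.28, 5.32 and 5.84 CPM untreated and 167, 123 and 129.7 CPM treated (4.67 ± 0.186) and Gbp10 at 3.60. They are near-identical copies whose reads cannot be assigned with certainty. Members that fell were Ifi27l2a (-1.28), Slfn9 (-0.79), Slfn3 (-0.63), Isg20 (-0.57) and, at adjusted p values that crossed the threshold in alternatives, Oas3 (-0.26, adjusted p = 0.0449) and Oas1a (-1.28, adjusted p = 0.0484). Oas3 lost its call with an adjusted p of 0.145 to 0.173 without any 1 of untreated replicates 2 and 3 and treated replicates 2 and 3, and was at a log2 fold change of -0.41 without treated replicate 1. Oas1a lost its call with one of 0.0735 to 0.22 without any 1 of untreated replicates 1 and 3 and treated replicates 2 and 3.

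The interferon-stimulated response element, bound by IRF factors, was searched as GAAA, any 2 bases and GAAA on both strands of the promoter windows. It was found in 3.84% of all genes with a window, in 22 of 33 interferon-inducible genes (66.7%) and in 5 of 19 genes of MHC class I presentation (26.3%). Among genes with a rise of at least 2-fold the share was 7.73%. Stretches are shown for the 4 risen interferon-inducible genes of largest fold change whose match lies before the start. In Ifit1, Gbp5 and Ifit3 the capitals are the opposite strand, and in Slfn5 the match runs into a run of A.
Slfn5 (chr11:82951907-82951996, plus strand): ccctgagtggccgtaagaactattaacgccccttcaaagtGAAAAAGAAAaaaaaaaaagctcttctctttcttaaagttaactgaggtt
Ifit1 (chr19:34640764-34640853, plus strand): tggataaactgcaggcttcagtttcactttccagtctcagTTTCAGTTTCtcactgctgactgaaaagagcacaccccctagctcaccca
Gbp5 (chr3:142496729-142496818, plus strand): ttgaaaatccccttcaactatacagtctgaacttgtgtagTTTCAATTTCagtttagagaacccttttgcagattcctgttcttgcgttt
Ifit3 (chr19:34583367-34583456, plus strand): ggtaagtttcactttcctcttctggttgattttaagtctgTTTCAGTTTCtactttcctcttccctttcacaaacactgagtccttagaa

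Slfn5, of the Schlafen family, was at 0, 0.419 and 0.168 CPM untreated and 4.12, 2.86 and 4.48 CPM treated (4.24 ± 0.495), so its fold change rests on few reads in the untreated libraries. Ifit1, which binds foreign mRNA caps, rose from 0.901, 1.2 and 0.337 CPM to 5.38, 5.53 and 4.86 CPM (2.69 ± 0.344) and Ifit3 from 1.32, 1.38 and 2.41 CPM to 9.93, 4.35 and 4.36 CPM (1.87 ± 0.329). Oas1a and Oas3, which fell, also hold the letters, so a match did not go with a rise in every case. Gbp5, Slfn5, Ifit1, Ifit3 and Oas1a are named after their values were seen.

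Of 22 genes of MHC class I presentation 13 rose and 3 fell. B2m, the common light chain, was at 957, 998 and 1005 CPM untreated and 1472, 1787 and 1554 CPM treated (0.70 ± 0.0936), a gene again named after its value was seen. The peptide transporter genes Tap1 and Tap2 rose by 0.67 ± 0.076 and 0.61 ± 0.0605 and Tapbpl, a peptide editor, by 0.69 ± 0.0761. H2-K1, a classical heavy chain, went from 2012, 1836 and 1925 CPM to 2595, 2940 and 2430 CPM (0.46 ± 0.113), and H2-Q4 and H2-Q6, which are uncertain because of near-identical copies, rose by 0.89 and 1.01. The 3 that fell, Canx, Calr and Pdia3, are general chaperones of the endoplasmic reticulum (log2 fold changes of -0.60, -0.77 and -0.44).

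**Figure D4:**
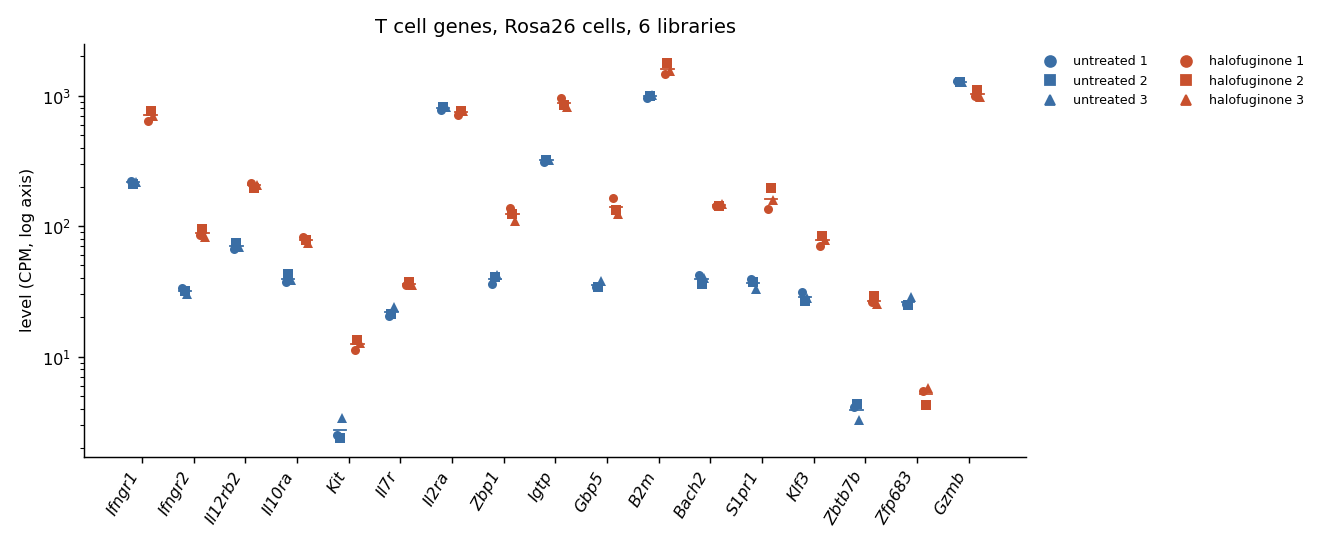
Level in CPM (log axis) of 17 T cell genes in each of the 6 Rosa26 libraries, untreated in blue and halofuginone in red; marker shapes give the replicate number and lines the group means. Il2ra, which did not pass the test, Zfp683 and Gzmb have their 3 treated libraries below the untreated ones, and the other 14 genes have them above.

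Genes of naive and memory T cells rose in 16 of 22 cases and fell in 3, with a median of 0.49. S1pr1, the receptor that lets T cells leave lymph nodes, was at 39.3, 37.5 and 33.2 CPM untreated and 134, 196 and 158 CPM treated (2.15 ± 0.115). Klf3, a repressor related to the quiescence factor KLF2, went from 31.3, 26.6 and 28.2 CPM to 70.9, 84.5 and 78.5 CPM (1.44 ± 0.08), Lef1 rose by 1.02 ± 0.0612 and Foxp1, which keeps naive cells at rest, by 0.68 ± 0.0505. Tcf7, the partner of Lef1, was at 365, 389 and 376 CPM untreated and 371, 452 and 369.8 CPM treated (0.08 ± 0.0824, adjusted p = 0.472). The 3 that fell were Eomes (-1.50), a T-box factor of memory and effector cells, Dapl1 (-1.69) and Id3 (-0.66).

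Effector genes were mixed, 11 up and 5 down of 24 (45.8% and 20.8%, against 23.6% and 24.1% of all genes). Gzmb, granzyme B, was at 1302, 1273 and 1272 CPM untreated and 1001, 1113 and 979 CPM treated (-0.31 ± 0.08). Zfp683, which encodes the residency factor HOBIT, went from 25.2, 24.8 and 28.7 CPM to 5.47, 4.29 and 5.73 CPM (-2.34 ± 0.137). Receptors shared with NK cells rose, Klrk1, which encodes NKG2D, from 17, 14 and 18.2 CPM to 51.7, 46.9 and 41.8 CPM (1.51 ± 0.106) and Klrd1, CD94, which pairs with the product of the NK marker Klrc1 given above, from 34.4, 34.5 and 40.3 CPM to 96.2, 115 and 90.3 CPM (1.47 ± 0.142).

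Of 17 inhibitory receptors and related genes 8 rose and 6 fell. Nt5e, which encodes the ectoenzyme CD73 that makes adenosine, was at 19.7, 20.4 and 21.8 CPM untreated and 67.9, 76.4 and 70.8 CPM treated (1.80 ± 0.0707, adjusted p = 1.28e-13), Ctla4 went from 93.9, 93.8 and 97.2 CPM to 194, 238 and 202 CPM (1.15 ± 0.108) and Lag3 rose by 1.04 ± 0.113. In contrast Cd160, Tox and Cd244a fell (log2 fold changes of -1.16, -0.57 and -1.67).

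Among 20 costimulators of the TNF family 11 rose and 3 fell. Tnfsf8, the ligand of CD30, was at 74, 71.2 and 65.9 CPM untreated and 219, 242 and 208 CPM treated (1.67 ± 0.063, adjusted p = 8.3e-14), Fas, the death receptor, rose by 1.63 ± 0.116 and Tnfrsf18, which encodes GITR, by 1.31 ± 0.131. Those that fell were Tnfsf11 (-1.06), the ligand RANKL, Tnfsf14 (-1.41) and the costimulatory receptor Cd28 (-0.57).

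Genes of T cell receptor signalling were split, with 12 of 40 up and 19 down. Dgka, a kinase that ends diacylglycerol signals, was at 259, 278 and 278 CPM untreated and 624, 585 and 599.6 CPM treated (1.15 ± 0.0636), and the ligase Cblb, a brake on activation, rose by 0.97 ± 0.0707. The kinases Txk and Prkcq, which carry the signal on, rose by 1.08 ± 0.0805 and 0.79 ± 0.0491. The proximal kinase Zap70 and the adaptor Lcp2, which encodes SLP-76, fell (log2 fold changes of -0.73 and -0.64), as did the phosphatase Ptpn6, SHP-1, from 326, 331 and 315 CPM to 141, 162 and 136 CPM (-1.15 ± 0.0724).

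The pathway of transforming growth factor beta rose in 16 of 26 genes and fell in 1, with a median of 0.41; the 1 fallen gene was not tested with a minimum count of 50. Skil, which encodes the feedback repressor SnoN, was at 63, 62.9 and 61.7 CPM untreated and 189.6, 197 and 185 CPM treated (1.61 ± 0.0624, adjusted p = 1.14e-13). Smad7, the inhibitory SMAD, rose by 0.96 ± 0.0777, Ski by 0.77 ± 0.0604, Furin, which cleaves the precursor of the cytokine, by 1.03 ± 0.0582 and the receptor Tgfbr2 by 0.70 ± 0.0712. Itgae, which encodes the CD103 chain that this cytokine induces in CD8 T cells, went from 31.4, 32.7 and 30.4 CPM to 80.5, 87.9 and 86.7 CPM (1.43 ± 0.0736). It led the trafficking genes, of which 11 of 29 rose and 9 fell.

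Of 26 immediate early factors 14 rose and 3 fell, or 1 without untreated replicate 1 and 1 with upper-quartile scaling. Genes of the feedback on NF-kappaB were among the rises, Nfkbia by 1.16 ± 0.112, Tnfaip3 by 1.07 ± 0.11 and Relb by 1.14 ± 0.0867. Zbtb7b, which encodes ThPOK, a factor of the CD4 lineage, was at 4.14, 4.37 and 3.25 CPM untreated and 26.1, 29 and 25.4 CPM treated (2.77 ± 0.128, adjusted p = 1.04e-12). Of the 5 measured markers of CD4 and regulatory T cells 4 rose; their summed level ran from 809.8 to 855 CPM untreated and from 819 to 867 CPM treated, most of it Il2ra. Foxp3, the defining factor of regulatory T cells, was at 4.8, 4.72 and 4.94 CPM untreated and 8.23, 7.33 and 8.22 CPM treated. Ikzf2, which encodes Helios, rose by 1.43 ± 0.117. The part of other T cells in these rises was not tested.

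Outside the lists, the highest fold change among genes that met the naming rule was that of Cox6a2, a muscle and heart subunit of cytochrome oxidase, at 0.36, 0.0598 and 0.168 CPM untreated and 5.04, 6.96 and 4.36 CPM treated (4.75 ± 0.5). Several other genes of other tissues rose from near silence to a few CPM, Myof, a membrane repair protein, by 3.78 ± 0.32, Kcnip2, a potassium channel partner, by 3.75 ± 0.247, Tbx6, a T-box factor of the mesoderm, by 3.27 ± 0.215 and Col7a1, a collagen of the skin, by 2.83 ± 0.268. Angptl6, a secreted angiopoietin-like protein, went from 3.48, 3.83 and 3.31 CPM to 32.4, 36.1 and 34.5 CPM (3.27 ± 0.137). Tsc22d3, which encodes the glucocorticoid-induced leucine zipper GILZ, was at 6.07, 6.52 and 7.07 CPM untreated and 38.6, 60.05 and 45.8 CPM treated (2.87 ± 0.17). In each of these genes all treated libraries were above all untreated ones, which the naming rule required.

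The lowest fold changes outside the lists included Sapcd2, a gene of spindle orientation (-2.05 ± 0.119), Cdkn3, a phosphatase of CDK1 (-2.02 ± 0.116), Pimreg (-1.98 ± 0.111), Fbln1, an extracellular matrix gene (-2.14 ± 0.184), and the histone genes H2ac8, H3c10, H2bc12 and H1f5 at -2.87, -2.38, -2.35 and -1.99. Histone genes are uncertain, since many copies are near identical and most of their mRNAs have no poly-A tail. By loss of level, the largest falls were those of Actb, beta actin, from 5969, 6682 and 6275 CPM to 4053, 4670 and 3714 CPM (-0.61 ± 0.1), Tubb5, a beta tubulin, from 2282, 2430 and 2313 CPM to 1038, 1226 and 1014 CPM (-1.10 ± 0.0856), and Hspa8, Eno1, Ptma, Ldha, Hmgb2 and Top2a, with log2 fold changes of -0.68, -0.86, -0.67, -0.91, -1.49 and -1.27. These are housekeeping, glycolytic and chromatin genes of dividing cells.

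How far the response of control cells differed from that of knockout cells was tested as an interaction, the log2 response in Rosa26 minus the log2 response in the knockout, in the same fit. Against Atf4 knockout cells 943 of 14695 genes differed (6.42%), 589 with the higher (4.01%) and 354 with the lower value in Rosa26 (2.41%). Against Cebpg knockout cells 363 differed (2.47%), 308 higher (2.1%) and 55 lower (0.374%). The split depended on the scaling: with RLE factors it was 489 higher and 705 lower against Atf4 knockout and 224 and 154 against Cebpg knockout, and with upper-quartile factors 743 and 494, and 303 and 150. It depended on single libraries too: without treated Rosa26 replicate 2 the lower genes numbered 829 and 205, and leaving out any other library gave 225 to 779 and 26 to 94. Both contrasts use the same 6 Rosa26 libraries, so they are not independent of each other. Libraries also differed in the share of transcripts awaiting experiments. It was 0.216%, 0.302% and 0.0735% in treated Atf4 knockout libraries, in order of replicate. In treated Cebpg knockout libraries it was 0.287%, 0.264% and 0.151%. Untreated libraries held 0.1% to 0.133% for Rosa26, 0.194% to 0.25% for Atf4 knockout and 0.199% to 0.213% for Cebpg knockout. The part of these differences in the interactions was not tested. Genes picked for a large response in Rosa26 are picked on libraries that also enter the difference, so the next counts are a description. Of the 1020 genes that rose by at least 2-fold in Rosa26, 101 responded more positively there than in Atf4 knockout cells and 18 less, and 40 and 11 did so against Cebpg knockout cells. Of the 571 genes that fell by at least 2-fold, 38 fell less in Rosa26 than in Atf4 knockout cells and 11 had the lower response in Rosa26. Against Cebpg knockout cells these numbers were 31 and 2.

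Of a panel of 24 genes 11 differed from Atf4 knockout and 9 from Cebpg knockout cells. The 9 include Cebpg, the gene targeted in the latter cells. Of these calls, Ddit3 and Zbtb7b against Atf4 knockout passed in 10 and 8 of the 20 alternatives, and Cd8a and Tcf7 against Cebpg knockout in 9 each. The rise of the drug target was one of them: Eprs1 was 0.71 in Rosa26, 0.08 in Atf4 knockout and -0.04 in Cebpg knockout cells, a difference of 0.63 ± 0.0865 (adjusted p = 0.000184) and of 0.75 ± 0.0865 (adjusted p = 3.12e-05). Atf5 and Trib3 had the largest positive differences, while the response of Mki67, Ccnd2 and Il7r did not differ past the threshold from that of either knockout, nor did it in the alternatives run. Txnip, Odc1, Cdkn1b and Gzmb did not pass either, but Txnip did so against Cebpg knockout in 7 of the 20 alternatives, and against Atf4 knockout Odc1 and Cdkn1b did in 2 each and Gzmb in 1. The plot of the panel shows the size of each with its standard error.

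**Figure D5:**
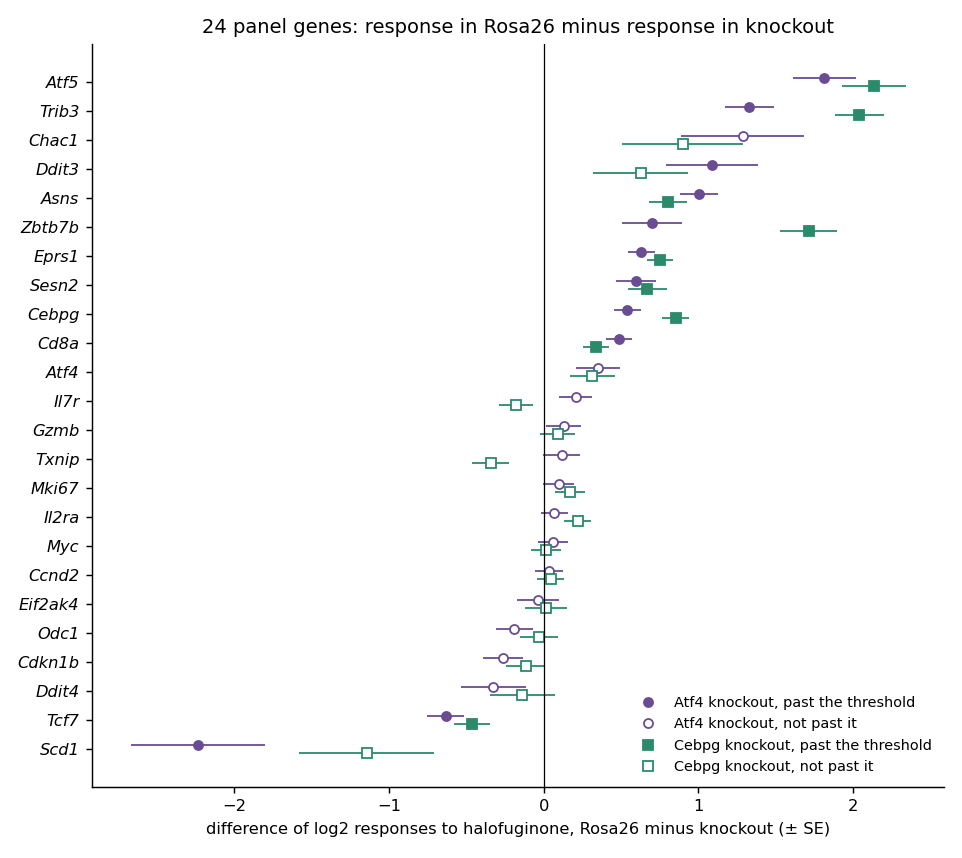
Difference between the log2 response to halofuginone in Rosa26 and in Atf4 knockout (circles) or Cebpg knockout cells (squares) for 24 panel genes; bars are standard errors and filled symbols passed the threshold. Atf5, Trib3, Asns, Eprs1, Sesn2, Cebpg, Cd8a and Zbtb7b lie above 0 against both knockouts and Tcf7 below 0; the filled symbols of Ddit3 and Zbtb7b against Atf4 knockout and of Cd8a and Tcf7 against Cebpg knockout stayed filled in 8 to 10 of 20 alternatives.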

How the data were processed

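Poly-A RNA of mouse CD8+ T cells was counted in 18 libraries, 3 in each of 6 groups, of which 6 are of Rosa26 cells. The authors deposited 1 count table with genes in lines and libraries in columns, unnormalized and in whole numbers, per the file headers. The submitters' processing notes name FastQC and MultiQC, the trimmer Trimmomatic, the aligner STAR, the counter HTSeq, edgeR and the genome build GRCm39. Tool versions, the annotation release and how strands were counted were not given in the sources used here; libraries were directional, per the labels' protocols. The table held 14695 genes; 449 blank names were filled from a GRCm38 annotation by identifier for 431 and left as identifiers for 18.

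All 18 libraries entered 1 edgeR 4.0.16 fit in R 4.3.3 with a term for each group, TMM factors, quasi-likelihood F tests with robust prior and Benjamini-Hochberg adjustment over all genes, without a further filter; filterByExpr at a minimum count of 10 kept all 14695. The script was tested on simulated data. Alternatives were RLE and upper-quartile factors, DESeq2 1.42.0, limma 3.58.1 voom with sample weights, a minimum count of 50, only the groups compared, a replicate block, and leaving out each library. The 43 lists (1080 genes, 975 measured; 37 of biology, 6 of cell type markers) and the panel of 24 genes were chosen with earlier results of these data known. Named were at most 5 risen and 5 fallen members of a list by smallest p, or all of lists with 14 or fewer; the panel; and, with at least 5 CPM in a group, no overlap and no predicted name, the 15 highest and 15 lowest fold changes and the 8 largest rises and falls in CPM. Where a gene falls outside this rule the text says so, apart from Malat1, given as a measure of library quality. Promoter windows were matched by symbol, 166 of them by an older one. Coordinates are those of the RefSeq windows, since no GRCm39 sequence was used here. Some genes of these lists, and some that the naming rule takes, are not reported here. Counts carry at least the sampling error of their depth, 15.7 to 20.3 M per library.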

Additional observations from a re-analysis of the deposited data

Results flagged for a closer look

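The response of 11 panel genes to halofuginone differed past the threshold between Rosa26 and Atf4 knockout cells, by the interaction term of the edgeR fit. The values below are the log2 response in Rosa26 minus that in the knockout, and no cause was tested. Positive differences were 1.82 for Atf5, 1.33 for Trib3, 1.09 for Ddit3, 1.00 for Asns, 0.70 for Zbtb7b, 0.63 for Eprs1, 0.60 for Sesn2, 0.54 for Cebpg and 0.49 for Cd8a. Negative ones were -0.63 for Tcf7 and -2.23 for Scd1. Scd1 fell by 3.03 in Rosa26 and was at -0.80 in Atf4 knockout cells, so its fall was the larger one in control cells.

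Against Cebpg knockout cells 9 panel genes differed, at 2.13 for Atf5, 2.04 for Trib3, 1.71 for Zbtb7b, 0.86 for Cebpg, 0.80 for Asns, 0.75 for Eprs1, 0.67 for Sesn2, 0.34 for Cd8a and -0.47 for Tcf7. Cebpg is the gene targeted in the Cebpg knockout cells, so its own value there is that of an edited gene. The part of the edit in that difference was not tested. Tcf7 was 0.08 in Rosa26, 0.71 in Atf4 knockout and 0.54 in Cebpg knockout cells. The differences of Ddit3 and Zbtb7b from Atf4 knockout and of Cd8a and Tcf7 from Cebpg knockout cells passed the threshold in 10, 8, 9 and 9 of the 20 alternatives run, in that order, with adjusted p up to 0.111, 0.136, 0.0957 and 0.101, while the other 16 passed in all 20. The same Rosa26 libraries enter both contrasts, treated replicate 2 among them.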

How the results depend on the processing

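The counts of genes higher and lower in Rosa26 cells stayed within 1.5-fold in the 14 alternatives run. Leaving out 1 library gave 3096 to 3358 higher and 3048 to 3934 lower genes, and 908 to 1163 and 506 to 625 at 2-fold. Of 301 named genes 282 kept their call in each of the 14 alternatives in which they were tested. Some named genes were not tested in every alternative. No named gene changed sign past the threshold, and 49 values lost and 16 gained a call. Upper-quartile scaling ended the calls of Eif2ak4, Oas1a, Oas3 and Stat5a, a minimum count of 50 those of Eif2ak4 and Oas3, voom that of Oas3, and fitting only the groups compared those of Eef1a1, Oas1a and Oas3. In the other direction, Prodh (upper-quartile scaling, voom, replicate block), Pars2 and Cst3 (voom, only the groups compared), Il2ra and Malat1 (voom) and Tcf7 (upper-quartile scaling) passed. The interaction counts depended more on the setting. Against Atf4 knockout, voom gave 1694 higher and 1122 lower genes, the groups compared alone 392 and 225, and lower genes numbered 705 with RLE factors, 889 with DESeq2 and 727 at a minimum count of 50; leaving out 1 library gave 404 to 700 higher and 225 to 829 lower (225 without untreated Atf4 knockout replicate 1, 226 and 229 without treated Rosa26 replicates 3 and 1, 779 without treated Atf4 knockout replicate 3 and 829 without treated Rosa26 replicate 2). Against Cebpg knockout, voom gave 827 higher and 307 lower, and lower genes numbered 154 with RLE, 150 with upper-quartile factors, 278 with DESeq2, 222 at the minimum count of 50 and 209 with only the groups compared; leaving out 1 library gave 150 to 304 higher (150 without treated Cebpg knockout replicate 2, 181 to 190 without untreated replicates 1 or 3 of Rosa26 or 2 or 3 of Cebpg knockout) and 26 to 205 lower (205 without treated Rosa26 replicate 2, 94 without treated Cebpg knockout replicate 2, and 26 to 35 without untreated Rosa26 replicates 1 or 3, treated ones 1 or 3, any untreated Cebpg knockout library or treated replicate 3). The causes were not tested. Whether replicate numbers pair the libraries was not settled. Deviations of untreated and treated Rosa26 libraries of the same number correlated at -0.0156, 0.309 and 0.301 for replicates 1 to 3. Those of untreated 2 with treated 3 and of untreated 3 with treated 2 correlated at -0.296 and -0.329. Those of untreated 3 with treated 1 correlated at 0.222. With the replicate block 3355 genes were higher and 3434 lower, and 493 and 290 differed from Atf4 and 232 and 41 from Cebpg knockout. Of the genes named, the block ended the calls of Oas1a, Oas3, Rps14 and Stat5a and made that of Prodh. Depth limits genes near 1 CPM.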
